A study of Mus musculus with 6 samples.

Results

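The R-spondins Rspo1, Rspo2 and Rspo3 and their receptors Lgr4, Lgr5 and Lgr6 were followed in articular cartilage and subchondral bone of the tibia, in Frzb-/- and wild-type mice. All probe sets were taken whose only annotated gene was 1 of these 6 genes. There were 7 of them among the 30618 deposited probe sets, from which the authors had removed control and absent ones. The same 7 were among the 25090 deposited probe sets with a single gene, which stand for 13817 genes. A gene given below as not found had no such probe set there, which does not show that the array lacks it. Lgr6 had 2 probe sets, 1436218_at (brighter) and 1427028_at (dimmer), and each of the other 5 genes had 1 (Rspo1 1449319_at, Rspo2 1455893_at, Rspo3 1455607_at, Lgr4 1433891_at and Lgr5 1450988_at).

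R-spondins are secreted proteins that strengthen WNT signaling without being WNT ligands themselves. They bind an LGR receptor together with the membrane ubiquitin ligases Znrf3 and Rnf43, which otherwise remove Frizzled receptors and their co-receptor Lrp6 from the cell surface. R-spondins therefore act on the WNT receptors from the opposite side to Frzb (secreted frizzled-related protein 3), an extracellular antagonist that binds WNT ligands, and in the skeleton both groups of proteins are known for roles in limb, cartilage and bone formation.

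RNA was taken from 6 male mice aged 6 weeks on a C57Bl/6J background and hybridised to Affymetrix mouse arrays, 1 array per mouse. The Frzb-/- mice carried a loss of Frzb in the whole body and were animals 14 and 17. Animal 6 is also labelled Frzb-/-, and it is shown apart because the study set aside 1 mouse with this label, found heterozygous on re-genotyping, without naming it. The 3 wild-type mice were animals 6-1, 8-1 and 9-1. The dissected piece held articular cartilage, trabecular bone with its marrow and the upper growth plate, so fewer cells of a type and less RNA per cell cannot be told apart. Values are RMA expression values on the log2 scale, and differences are given as log2 fold changes, Frzb-/- over wild-type. They were tested with limma over all 30618 probe sets. A probe set passed where the p after Benjamini-Hochberg adjustment was under 0.01 and the log2 fold change was above 1 or below -1.

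The targeted gene was checked first. The brighter Frzb probe set read 7.02 and 6.42 in Frzb-/- animals 14 and 17, 6.93 in animal 6, and 10.02, 10.79 and 10.16 in wild-type animals 6-1, 8-1 and 9-1. Frzb was thus low in all 3 labelled mice, animal 6 included. With animals 14 and 17 as Frzb-/-, its log2 fold change was -3.606, the value the study printed. By elimination, animal 6 is the mouse that the study set aside as heterozygous. Why Frzb read low in it was not tested. Over all probe sets, the arrays of the 2 Frzb-/- mice correlated with each other at 0.988 and with the wild-type arrays at 0.938 to 0.967, whereas animal 6 correlated with the wild-type arrays at 0.983 to 0.991. The chondrocyte collagen Col2a1 (14.56 to 14.75) and the bone collagen Col1a1 (14.53 to 14.87) were bright in all 6 arrays. The muscle actin Acta1 was bright too (13.85 to 14.61).

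Rspo2 was the only R-spondin or LGR probe set that passed the test. It was higher in Frzb-/- mice, by 2.83-fold. By contrast, Rspo3 was lower and both Lgr6 probe sets were higher in both Frzb-/- mice than in every wild-type mouse, but by less than the thresholds ask. Rspo1, Lgr4 and Lgr5 differed little. In all, 1 of the 7 probe sets passed as higher, against 2.34% of all probe sets, and 0 passed as lower, against 5.09% of all probe sets. At an adjusted p under 0.05 without a fold threshold, 2 were higher (Rspo2 and the dimmer Lgr6 probe set), against 11.7% of all probe sets, and 1 was lower (Rspo3), against 14.8%. Both Frzb-/- arrays lay above all wild-type arrays for 4 of the 7 and below them for 1 of the 7. Over all probe sets these shares were 27.5% above and 28.1% below.

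**Figure D1:**
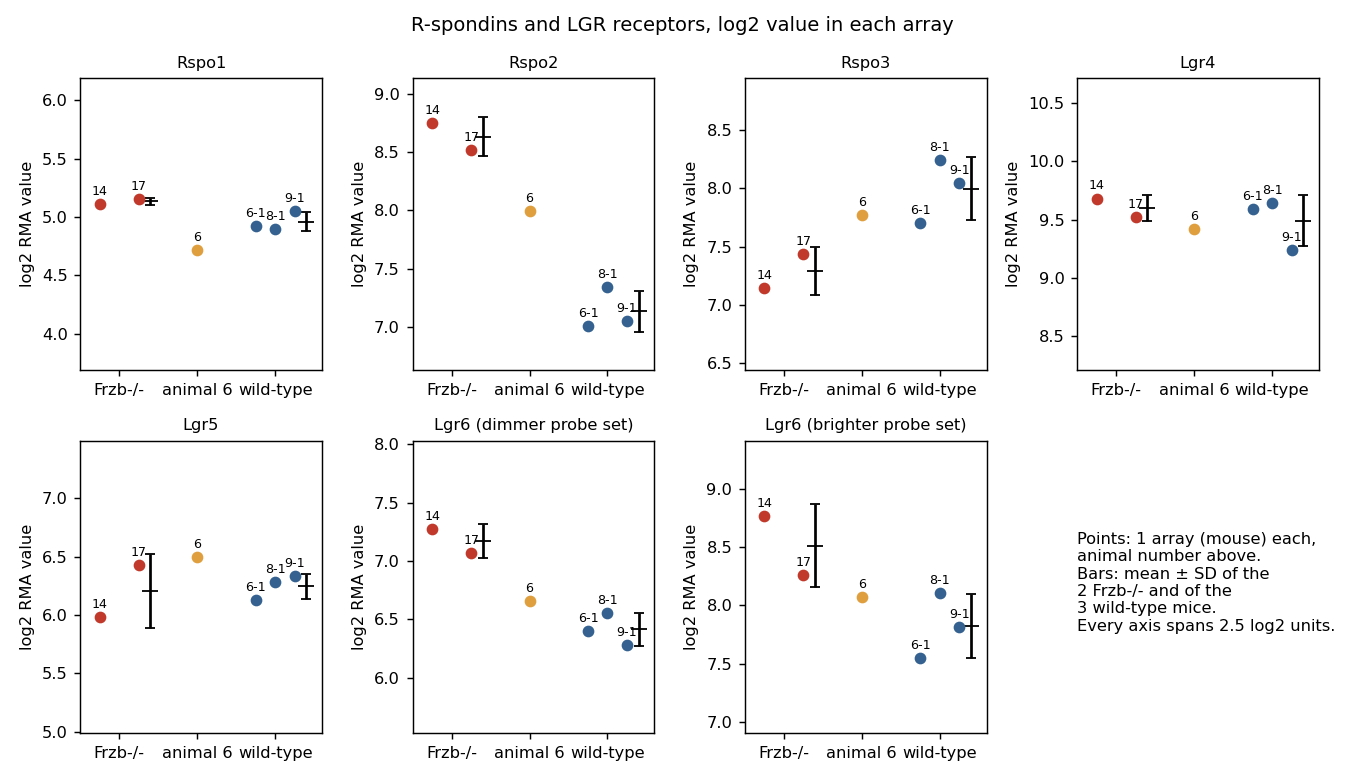
Log2 RMA value (vertical axes, each spanning 2.5 log2 units) of the 7 probe sets in each array, for Frzb-/- mice (red, animals 14 and 17), animal 6 (orange) and wild-type mice (blue), with bars for the mean ± SD of the 2 Frzb-/- and of the 3 wild-type mice. Rspo2 lies between 8.52 and 8.75 in Frzb-/- mice, at 7.99 in animal 6 and between 7.01 and 7.34 in wild-type mice.

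Rspo2 encodes an R-spondin that is needed for limb and lung formation in mice. Its log2 value was 8.75 and 8.52 in Frzb-/- animals 14 and 17, 7.99 in animal 6, and 7.01, 7.34 and 7.05 in wild-type animals 6-1, 8-1 and 9-1. The lowest Frzb-/- array lay 1.18 log2 units above the highest wild-type array, and animal 6 lay between the groups. The mean was 8.63 ± 0.16 in Frzb-/- mice (SD, n = 2) and 7.13 ± 0.18 in wild-type mice (SD, n = 3). The log2 fold change was 1.50 with an SE of 0.15 (95% limits 1.14 to 1.86), and the adjusted p was 0.00135 by limma. Among the 418 genes that passed as higher, 112, with Rspo2 itself included, had a log2 fold change at least as large as that of Rspo2. The call was lost without animal 17, at 1.62 with an adjusted p of 0.0103 by limma. It was also lost when animal 6 was counted as Frzb-/-, at 1.29 with an adjusted p of 0.428.

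Rspo3 encodes an R-spondin known for its part in blood vessel and placenta formation in mice. Its log2 value was 7.14 and 7.44 in Frzb-/- animals 14 and 17, 7.77 in animal 6, and 7.70, 8.24 and 8.04 in wild-type animals 6-1, 8-1 and 9-1. Both Frzb-/- arrays were below every wild-type array, by 0.27 log2 units at the closest pair, and animal 6 lay inside the wild-type range. The mean was 7.29 ± 0.21 in Frzb-/- mice (SD, n = 2) and 8.00 ± 0.27 in wild-type mice (SD, n = 3). The log2 fold change was -0.70 with an SE of 0.19 (95% limits -1.15 to -0.26) and an adjusted p of 0.0328 by limma, so Rspo3 did not pass. Without each mouse in turn, the log2 fold change of Rspo3 lay between -0.85 and -0.56, and the adjusted p was under 0.05 only without wild-type animal 6-1 (0.0200 by limma).

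Rspo1 encodes an R-spondin known for its role in ovary development in mice. Its log2 value was 5.11 and 5.15 in Frzb-/- animals 14 and 17, 4.72 in animal 6, and 4.93, 4.90 and 5.05 in wild-type animals 6-1, 8-1 and 9-1. The groups did not overlap, but the gap was 0.06 log2 units, and all values were in the dim range, at percentiles 12.1 to 17.2 of their own arrays. The log2 fold change was 0.18 (95% limits -0.10 to 0.45, adjusted p = 0.314 by limma). The limits of Rspo1 leave room for no change and for a rise of up to 0.45.

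Lgr6 is the LGR receptor known for marking stem cells of the hair follicle in mice, and it differed most among the 3 receptors. The brighter of its 2 probe sets read 8.76 and 8.26 in Frzb-/- animals 14 and 17, 8.07 in animal 6, and 7.55, 8.11 and 7.81 in wild-type animals 6-1, 8-1 and 9-1. The dimmer one read 7.27 and 7.07 in Frzb-/- mice, 6.65 in animal 6, and 6.40, 6.56 and 6.28 in the wild-type mice. With both probe sets the Frzb-/- arrays were above every wild-type array, by 0.16 log2 units at the brighter and 0.51 at the dimmer probe set, and animal 14 was the highest. The log2 fold changes of the 2 Lgr6 probe sets were close, at 0.69 (SE 0.21, 95% limits 0.18 to 1.20) and 0.76 (SE 0.14, 95% limits 0.43 to 1.09). The adjusted p by limma was 0.0543 for the brighter Lgr6 probe set and 0.00891 for the dimmer one, which met the threshold on p but not that on fold.

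Promoters were planned for members that passed, but the promoter table had no entry for Rspo2. The promoter of Lgr6, which did not pass, is shown instead because Lgr6 is the receptor with the largest difference. The letters are from RefSeq (GRCm38.p6, minus strand, chr1:135105227-135105526, written 5′ to 3′), and the capitals mark the 50 bases from the start used by the promoter table onwards. The gene's annotated 5′ end on this build is farther upstream, at position 135105374, so that part of the lower-case stretch lies within the annotated gene.
Lgr6 promoter: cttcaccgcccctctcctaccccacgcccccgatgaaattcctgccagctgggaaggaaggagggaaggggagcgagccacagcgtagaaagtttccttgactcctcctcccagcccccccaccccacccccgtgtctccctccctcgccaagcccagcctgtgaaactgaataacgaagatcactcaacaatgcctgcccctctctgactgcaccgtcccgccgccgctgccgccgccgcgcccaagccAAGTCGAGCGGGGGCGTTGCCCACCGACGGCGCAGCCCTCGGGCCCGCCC
A search for 3 forms of the letters bound by TCF/LEF factors, the DNA-binding partners of β-catenin (CTTTGAA as the first form, CTTTGAT as the second and CTTTGTT as the third, on both strands), found 0 in this window. Of the 32851 promoters of this length in the table, 13.9% hold at least 1 of the 3 forms. The promoters of Rspo1 and Lgr4 in the same table hold 0 as well. A lack of these letters in a window says nothing about binding elsewhere.

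Lgr4, the most widely expressed of the LGR receptors, is known for a role in bone formation in mice. Its log2 value was 9.68 and 9.52 in Frzb-/- animals 14 and 17, 9.42 in animal 6, and 9.59, 9.64 and 9.24 in wild-type animals 6-1, 8-1 and 9-1. The groups overlapped. The log2 fold change of Lgr4 was 0.11 (95% limits -0.27 to 0.49, adjusted p = 0.645 by limma). Lgr5, the receptor known for marking stem cells of the intestine, read 5.98 and 6.43 in Frzb-/- animals 14 and 17, 6.50 in animal 6, and 6.13, 6.28 and 6.33 in wild-type animals 6-1, 8-1 and 9-1. The 2 Frzb-/- arrays lay on either side of the wild-type range. The log2 fold change of Lgr5 was -0.04 (95% limits -0.43 to 0.35, adjusted p = 0.868 by limma). For both receptors, a change of the size seen for Rspo2 lies outside the limits, and a rise of 0.3 does not.

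**Figure D2:**
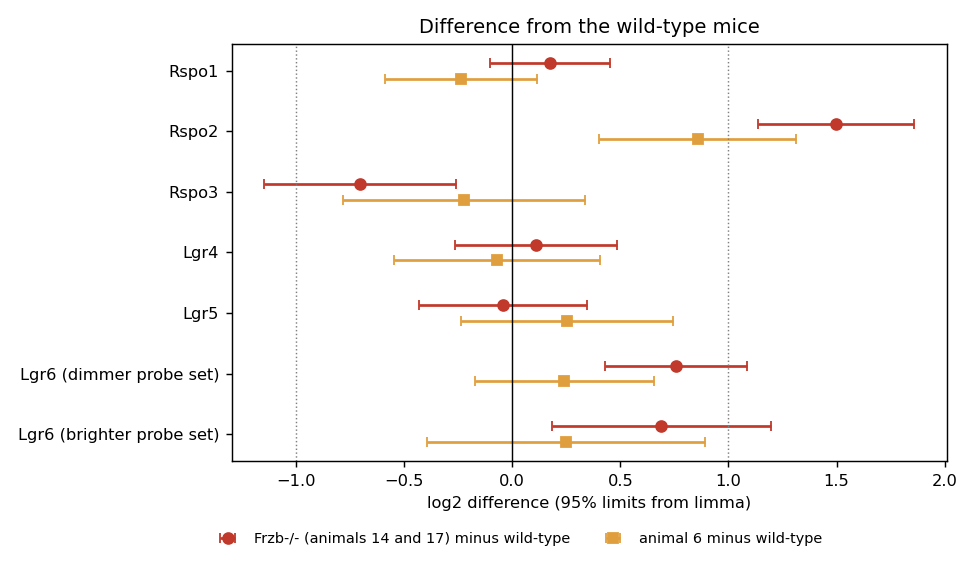
Log2 difference from the wild-type mice (horizontal axis) for the 7 probe sets, with 95% limits from limma, for the Frzb-/- animals 14 and 17 (red circles) and for animal 6 (orange squares, spread taken from the other groups). Dotted lines mark an absolute log2 difference of 1, and only the Frzb-/- limits of Rspo2 lie wholly beyond it.

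Animal 6 was set against the same 3 wild-type arrays, so its differences share their controls with those above. No member probe set passed in animal 6 by limma, and neither did Frzb itself, at -3.39 in animal 6 at its brighter probe set. Animal 6 is 1 array, so not passing says little here, and only the sizes are read. The largest member difference was again that of Rspo2, which was 0.86 higher in animal 6 than in wild-type mice (SE 0.19, 95% limits 0.40 to 1.31). It was 1.50 in the Frzb-/- mice. For the other 6 probe sets, the difference of animal 6 lay between -0.24 (Rspo1) and 0.25 (Lgr5 and the brighter Lgr6 probe set), and the 95% limits of each included 0.

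The genes around the R-spondin receptors were read at 1 probe set each. Of the 20 listed genes of the receptor complex and its turnover, 17 had a probe set (Rspo4, Rnf43 and Dvl3 were not found). Of these, 3 of 17 passed as higher and 0 as lower, against 3.03% and 6.02% of all genes. The median log2 fold change of the 17 genes was 0.46, and that of all genes was 0.04. The 3 were the WNT receptors Fzd1 (1.37), Fzd8 (1.13) and Fzd2 (1.02), and all 3 had an adjusted p between 0.00120 and 0.00357 by limma. Fzd1 read 9.91 and 10.16 in Frzb-/- mice, 9.04 in animal 6, and 8.71, 8.68 and 8.61 in wild-type mice. Its groups were far apart, with animal 6 nearer to the wild-type mice. Of the genes that did not pass, Fzd4 had a log2 fold change of 1.41 (adjusted p = 0.0335), Fzd6 of 0.85 (adjusted p = 0.00472) and Znrf3 of 0.62 (adjusted p = 0.0194). The wild-type arrays of Fzd4 were spread, with animal 9-1 at 8.19 against 9.46 and 9.33 in the other wild-type mice. Znrf3, the ligase that R-spondins draw away, read 7.76 and 7.98 in Frzb-/- mice, 7.60 in animal 6, and 7.14, 7.41 and 7.20 in wild-type mice. The co-receptors Lrp5 (0.12) and Lrp6 (0.28) did not pass.

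Of 17 listed feedback targets of β-catenin, 13 had a probe set (Tcf7, Sp5, Ascl2 and Rnf43 were not found). Of these, 3 of 13 passed as higher and 1 of 13 as lower, against 3.03% and 6.02% of all genes, so the lower count is near the share of all genes. The median log2 fold change was 0.39. The higher genes were the Dishevelled-binding inhibitors Nkd1 (1.63) and Nkd2 (1.21) and the membrane inhibitor Apcdd1 (1.32). The lower gene was Dkk1 (-1.05), a secreted inhibitor that binds Lrp5 and Lrp6. Nkd1 read 7.15 and 6.90 in Frzb-/- mice, 6.16 in animal 6, and 5.17, 5.53 and 5.51 in wild-type mice, and Dkk1 read 8.37 and 7.93 in Frzb-/- mice, 9.25 in animal 6, and 9.11, 9.39 and 9.08 in wild-type mice. For Nkd1, animal 6 lay between the groups. For Dkk1 it lay inside the wild-type range. Axin2, a target used widely as a readout of β-catenin, had a log2 fold change of 0.39 and did not pass (adjusted p = 0.0701). Lef1 (-0.81, adjusted p = 0.0184), Myc (-0.79, adjusted p = 0.00490) and Znrf3 did not pass. All p in these lists are from limma. Rspo2, Fzd1, Fzd2, Fzd8, Nkd1, Nkd2 and Dkk1 also stand in a WNT table that the study chose on these arrays, so their direction is not independent evidence. Of 5 other glycoprotein hormone and relaxin receptors of the LGR superfamily, 1 had a probe set, Tshr (0.57, adjusted p = 0.0304 by limma, not passed).

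**Figure D3:**
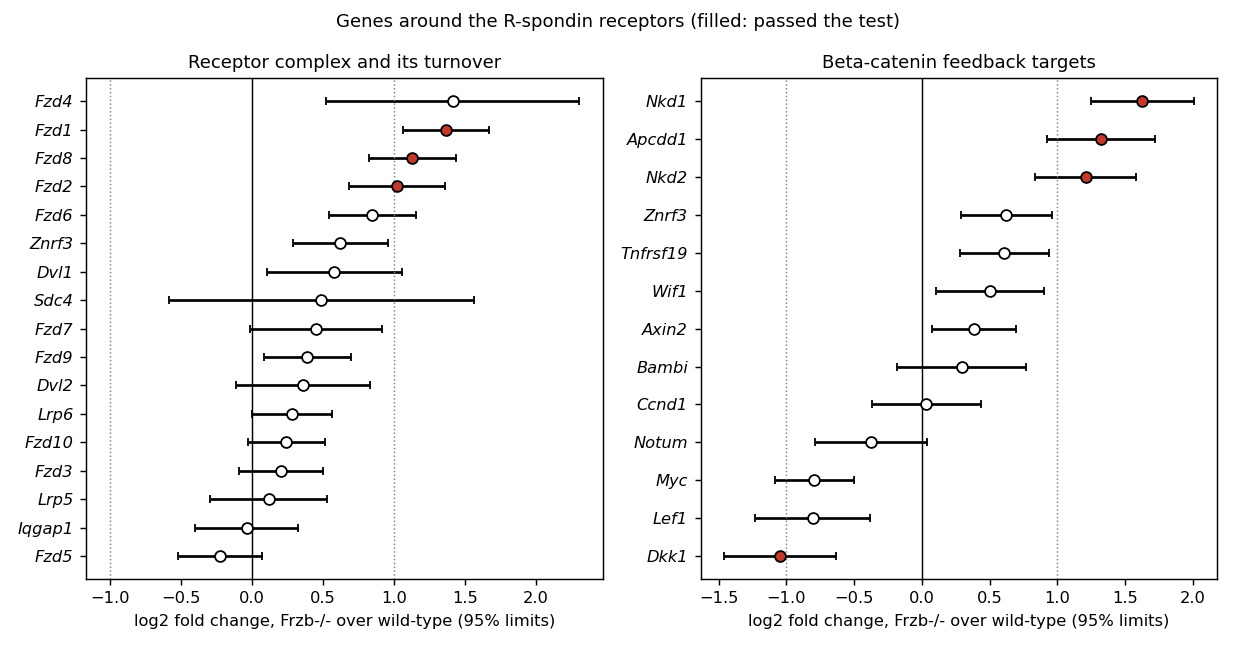
Log2 fold change of Frzb-/- over wild-type mice (horizontal axes, with 95% limits from limma) for the 17 genes of the receptor complex (left) and the 13 feedback targets (right), with genes that passed the test filled. Fzd1, Fzd2 and Fzd8 passed on the left, and Nkd1, Nkd2, Apcdd1 and Dkk1 on the right.

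Markers of other cell types differed between the same groups. Of 10 fibroblast markers 7 passed as higher (Col14a1 2.26, Dpt 1.77), while Dcn, the brightest, did not (0.75). Pi16 went the other way, at -0.89, with both Frzb-/- arrays below every wild-type array, and it did not pass (adjusted p = 0.00887 by limma). The list's summed level was 15.42 to 15.45 in Frzb-/- mice, 14.73 in animal 6 and 14.26 to 14.53 in wild-type mice. Of 7 smooth muscle and pericyte markers 3 passed as higher (Myh11 1.79, Tagln 1.44). Rgs5, the brightest, did not pass at the probe set read here (0.83), though another of its probe sets passed the test. All 7 were higher at an adjusted p under 0.05 by limma. Their summed level was 14.43 to 14.48 in Frzb-/- mice, 13.28 in animal 6 and 13.27 to 13.55 in wild-type mice. Animal 6 lay within the wild-type range for smooth muscle and just above it for fibroblasts. Marrow markers were lower. All 6 erythroid markers found (Epb42 -3.25, Rhag -2.86), all 7 neutrophil markers (Ltf -2.68, Elane -2.68) and 3 of 5 B cell markers found (Ms4a1 -2.57, Cd79a -2.33) passed as lower. The summed level of the erythroid list was 11.45 to 12.03 in Frzb-/- mice, 14.64 in animal 6 and 14.19 to 14.68 in wild-type mice. That of the neutrophil list was 14.53 to 15.01 in Frzb-/- mice, 16.58 in animal 6 and 16.38 to 16.78 in wild-type mice. That of the B cell list was 9.45 to 9.98 in Frzb-/- mice, 11.69 in animal 6 and 11.32 to 11.83 in wild-type mice. Animal 6 lay inside the wild-type range of all 3 marrow lists. The brightest genes of these lists had log2 fold changes of -2.80 (Slc4a1, erythroid), -1.67 (S100a9, neutrophil) and -1.38 (Vpreb1, B cell, not passed).

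None of 9 chondrocyte markers passed (median 0.03), and their summed level was 16.41 to 16.49 in Frzb-/- mice, 16.57 in animal 6 and 16.10 to 16.50 in wild-type mice. Among them, only Prg4 had an adjusted p under 0.05 (0.85, adjusted p = 0.0164 by limma). None of 7 endothelial markers passed either (median 0.62), but their summed level was above the wild-type range in both Frzb-/- mice, at 12.13 to 12.19 in Frzb-/- mice, 11.78 in animal 6 and 11.71 to 11.99 in wild-type mice. Emcn (1.10), Tek (0.65) and Cldn5 (0.62) had positive log2 fold changes with an adjusted p under 0.05 by limma, and Vwf, the brightest, a negative one (-0.55). None of 6 skeletal muscle markers (median 0.23, brightest Acta1 at 0.16) and none of 5 macrophage markers (median 0.19, brightest Csf1r at 0.19) passed. Of the macrophage markers, only C1qa had an adjusted p under 0.05 (0.71, adjusted p = 0.00737 by limma). The macrophage list's summed level was 13.09 to 13.26 in Frzb-/- mice, 12.96 in animal 6 and 12.88 to 12.99 in wild-type mice. Of 6 osteoblast and osteocyte markers found, 1 passed, the osteocyte WNT inhibitor Sost (-2.57), which was lower. Alpl was higher (0.62, adjusted p = 0.0234 by limma) but did not pass. The summed level of this list was 15.50 to 15.64 in Frzb-/- mice, 15.62 in animal 6 and 15.36 to 15.48 in wild-type mice. Of 6 tendon markers 1 passed as higher (Thbs4 1.25), while the brightest, Fmod, did not (0.49). Kera (1.57, adjusted p = 0.0346) and Tnmd (1.48, adjusted p = 0.0179 by limma) were larger but did not pass. The tendon list's summed level was 14.70 to 14.71 in Frzb-/- mice, 14.05 in animal 6 and 13.95 to 14.00 in wild-type mice. Of 3 adipocyte markers found 1 passed as higher (Adipoq 1.21), while the brightest, Fabp4, did not (0.76). All 3 were higher at an adjusted p under 0.05 by limma. Their summed level was 13.86 to 13.92 in Frzb-/- mice, 12.59 in animal 6 and 12.69 to 13.26 in wild-type mice. These cell types' part in the differences of Rspo2, Rspo3 and Lgr6 was not tested.

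**Figure D4:**
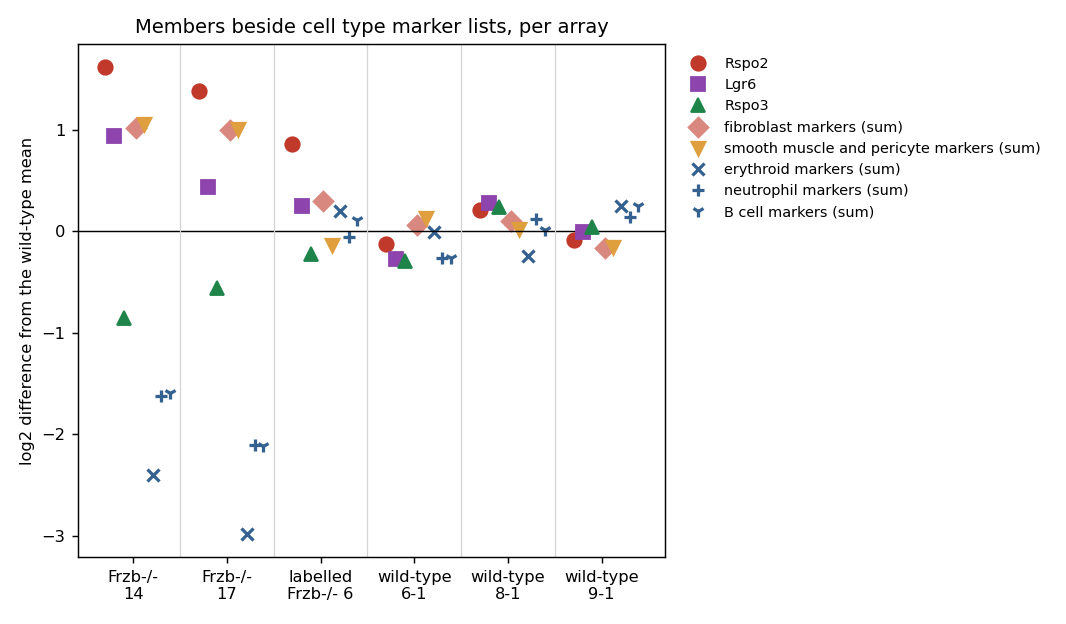
Log2 difference from the wild-type mean (vertical axis) in each array, with Frzb-/- animals 14 and 17 on the left, then animal 6, then the wild-type animals, for Rspo2, Lgr6 (brighter probe set) and Rspo3 and for the summed level of 5 marker lists. In Frzb-/- mice the fibroblast and smooth muscle sums lie near 1 and the marrow sums lie below 0, and in animal 6 Rspo2 lies at 0.86.

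The genes whose pattern over the 6 arrays was most like each member's were found by Pearson's r among about 9115 genes above the median level. These values describe 6 arrays that fall into 2 clusters and share their normalization. For Rspo2 they were Mamdc2 (0.997), Ndufa4l2 (0.997) and Dnajc1 (0.997), and 300 genes had an r above 0.95. For Rspo3 they were Taf13 (0.991), Snrnp200 (0.984) and Ceacam1 (0.979). For Lgr6 they were Kdelr3 (0.996), Ndfip1 (0.995) and Pik3c2a (0.993), and 100 genes had an r above 0.95. Of these 9 genes, Mamdc2 (1.59) and Ndufa4l2 (1.20) passed as higher in Frzb-/- mice and Ceacam1 (-1.03) passed as lower. Mamdc2 read 10.06 and 9.93 in Frzb-/- mice, 9.21 in animal 6, and 8.28, 8.62 and 8.34 in wild-type mice. As with Rspo2, animal 6 lay between the groups. The genes nearest to Rspo1 were the antigen-presenting H2-Eb1 (0.992) and H2-Ab1 (0.989) and the quinone reductase gene Nqo2 (0.990). For Lgr4 (Mcfd2 0.984, Cdkn1a 0.969, Ttll1 0.950) and Lgr5 (Ctnnbl1 0.972, Fxyd2 0.963, Rhbdl2 0.957), none of the 3 nearest genes passed the test.

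**Figure D5:**
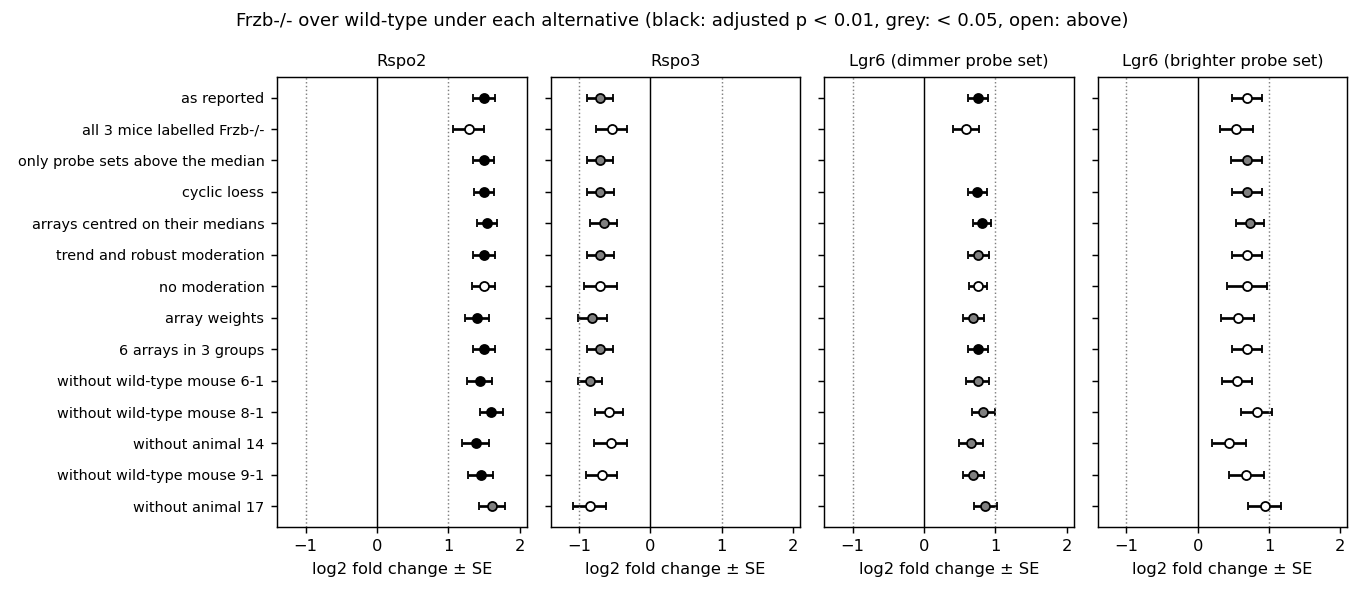
Log2 fold change ± SE of Frzb-/- over wild-type mice (horizontal axes) for Rspo2, Rspo3 and both Lgr6 probe sets under each alternative (rows), with black points for an adjusted p under 0.01, grey points under 0.05 and open points above. Rspo2 stays between 1.29 and 1.62 and beyond the dotted line at 1 in every row, while its adjusted p is 0.01 or more in 3 of them.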

How the data were processed

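The authors prepared the arrays with RMA in the affy package (version 1.20.0), which corrects background, normalises by quantiles and summarises probes, and removed control and absent probe sets. The deposited values are log2 expression values, 1 column per mouse, without detection calls. Their medians lay between 7.32 and 7.45, and the comparison rests on 2 Frzb-/- and 3 wild-type arrays. Probe sets with several genes (677) or no annotated gene (4851) were tested but not named. All 30618 probe sets were fitted with lmFit and tested two-sided with eBayes, of limma 3.58.1 under R 4.3.3. Tables and plots used Python 3.11.15, numpy 2.4.6, pandas 2.3.3 and matplotlib 3.10.9. In simulated data of the same design and 30618 probe sets, 97 of 100 shifts of 1.5 were recovered, with 2 false calls. The simulation shifted fewer probe sets than passed in the real arrays and drew errors independently for each probe set. Its figures therefore need not hold for the real arrays.

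A gene in a list was read at the probe set of highest mean over the 6 arrays, and a list's summed level is log2 of the sum of its genes' linear values. The members and lists were chosen with earlier results of these data known. An earlier analysis had matched the study's printed fold changes to animals 14 and 17, and they were taken from it. Named were every member probe set, Frzb, the list genes that passed with the 3 largest that did not, up to 2 passing genes and the brightest of marker lists, and the 3 genes of most similar pattern. Axin2, Lrp5 and Lrp6 were chosen after their values were seen. Of the 6 promoters, 3 matched the RefSeq table by symbol. Alternatives were leaving out each mouse, counting all 3 labelled mice, probe sets above the median, cyclic loess, median centring, trended and robust moderation, no moderation, array weights, the mean over all probe sets of a gene, all 6 arrays in 3 groups and an adjusted p under 0.05 alone. The mice are separate animals.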

Additional observations from a re-analysis of the deposited data

Results flagged for a closer look

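Rspo2 in animal 6, a mouse outside the main comparison, was picked out because this array was above all 3 wild-type arrays. The comparison of genotypes does not use these data. Animal 6 was also above all 3 for Lgr5, by 0.17 log2 units, and for the dimmer Lgr6 probe set, by 0.10. The share of all probe sets where it was so was not computed. Rspo2 in animal 6 was 0.86 log2 units above the wild-type mean (7.99, against 7.01, 7.34 and 7.05 in wild-type mice). The difference did not pass, but in this comparison of 1 array Frzb itself (-3.39) did not pass either. The cause of the Rspo2 difference was not tested.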

How the results depend on the processing

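Rspo2 kept its direction in 15 of 15 alternatives and its call in 12. The fit of all 6 arrays in 3 groups gave Rspo2 the same values as the main test. An adjusted p under 0.05 alone only loosens the rule. Neither could lose the call, and the 12 include both. The call was lost with all 3 labelled mice (1.29, adjusted p = 0.428 by limma), without moderation (1.50, adjusted p = 0.0595) and without animal 17 (1.62, adjusted p = 0.0103). Without each mouse in turn its log2 fold change was 1.38 to 1.62. Over all alternatives its adjusted p was 0.000805 to 0.428. The count of members that passed as higher was 0 under each of these 3 settings (0 to 1 without each mouse) and 2 at an adjusted p under 0.05 alone, where the count that was lower was 1, Rspo3 (-0.70). Rspo3 and Lgr6 kept their direction in 15 of 15. With the mean over its probe sets, Lgr6 was at 0.72 (adjusted p = 0.0182 by limma, still not passed), and the higher counts of both gene lists below were 2. Lgr4 kept it in 14 of 15 and Lgr5 in 11 of 14, so their signs are not settled. Rspo1 kept its direction in 14 of 14. The adjusted p of the dimmer Lgr6 probe set by limma stayed under 0.01 with cyclic loess (0.00734) and median centring (0.00425). It was above 0.01 with trended and robust moderation (0.0110), array weights (0.0143) and no moderation (0.0756). Some of these alternatives leave the log2 fold change of a probe set as it was, so the direction could not change in them. They were probe sets above the median, trended and robust moderation, no moderation, all 6 arrays in 3 groups and an adjusted p under 0.05 alone. For genes with 1 probe set, the mean over probe sets is another. The direction counts include them.

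Receptor complex genes that passed as higher numbered 0 with all 3 labelled mice, 0 without moderation and 6 at an adjusted p under 0.05 alone, and 0 to 3 without each mouse (0 without animal 17, 1 without animal 14). Feedback targets higher numbered 0 with all 3 labelled mice, 0 without moderation, 1 among probe sets above the median and 5 at an adjusted p under 0.05 alone, and 1 to 3 without each mouse (1 without wild-type animal 8-1). The count of lower targets, which was Dkk1 alone, was 0 with all 3 labelled mice, without moderation and with arrays centred on their medians, 3 at an adjusted p under 0.05 alone, and 0 to 1 without each mouse (0 without any 1 of the wild-type mice or animal 17).

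Over all probe sets, 717 passed as higher and 1558 as lower. These counts were 0 and 0 with all 3 labelled mice (3534 at an unadjusted p under 0.05) and 0 and 0 without moderation (9835). They were 97 and 335 without animal 17, 355 and 1506 without animal 14, and 298 and 676 without wild-type animal 8-1. The causes were not tested, beyond the loss of a mouse. No paired analysis was possible because the labels give the groups no shared replicate numbers. With 2 Frzb-/- mice, an absent call does not show that a member did not change.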
